A study of Rattus norvegicus with 24 samples.

Results

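Ahr (ENSRNOG00000004342) and Arnt (ENSRNOG00000031174), the transcripts of the dioxin receptor and of its dimerisation partner, were followed in the livers of female Sprague-Dawley rats given TCDD for 28 days. The members were taken by these 2 gene IDs, out of 26404 gene IDs in the count tables, and both passed the filter on low counts that left 12496 IDs for testing. The symbols came with the choice of IDs. The RefSeq gene table used here holds no Ensembl IDs and the count tables hold no symbols, so other genes of the pathway, known targets of the receptor and markers of liver cell types were not analysed here by name. The study held 24 libraries, 3 rats in each of 8 groups. The control group received sesame oil, the vehicle, and the others received TCDD (2,3,7,8-tetrachlorodibenzo-p-dioxin) at 7 doses, namely 0.01 and 0.03, then 0.1 and 0.3, then 1 and 3, and finally 10 µg/kg. Each rat was dosed by oral gavage at intervals of 4 days until its liver was collected on day 28. The labels give an age of 57 days for all rats, an outbred stock with no genetic change stated, and describe the 3 libraries of a group as biological replicates.

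AHR is a ligand-activated transcription factor of the basic helix-loop-helix PAS family. Without ligand it is held in the cytosol by a chaperone complex built on HSP90. After binding a ligand such as TCDD it enters the nucleus and pairs with ARNT, and the dimer binds dioxin response elements with the core GCGTG, beside genes of xenobiotic metabolism such as the CYP1 family. Ligand-bound AHR protein is degraded by the proteasome, a step that transcript counts do not measure. ARNT has no TCDD-binding role of its own and also serves as the partner of the hypoxia-inducible factors.

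The stretches of 250 bases before the RefSeq start of each gene (assembly GRCr8) are shown because they are where the core element of the dimer, or sites of general promoter factors, would be looked for first in genes whose transcripts changed with dose. Letters in capitals mark matches to 3 motifs searched on both strands, which were chosen after the sequences had been seen.
Ahr, chr6:57998902-57999151, minus strand: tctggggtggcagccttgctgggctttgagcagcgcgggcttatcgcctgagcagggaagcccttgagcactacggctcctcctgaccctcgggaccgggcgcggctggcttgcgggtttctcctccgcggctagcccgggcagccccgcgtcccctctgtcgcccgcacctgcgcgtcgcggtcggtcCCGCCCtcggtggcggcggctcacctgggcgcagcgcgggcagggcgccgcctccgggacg
Arnt, chr2:185686453-185686702, plus strand: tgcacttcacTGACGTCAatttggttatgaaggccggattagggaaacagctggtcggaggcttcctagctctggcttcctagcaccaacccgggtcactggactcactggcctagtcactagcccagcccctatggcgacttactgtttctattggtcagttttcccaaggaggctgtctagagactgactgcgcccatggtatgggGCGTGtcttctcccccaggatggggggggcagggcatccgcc
The dioxin response element core GCGTG had 0 matches before Ahr and 1 match before Arnt, on the strand of the gene, from 42 to 38 bases before the start. It matched somewhere in 25.9% of the 33469 RefSeq promoters of this length. The GC box GGGCGG matched once before Ahr, on the opposite strand, from 61 to 56 bases before the start, and had 0 matches before Arnt, against 30.5% of promoters with a match. The cyclic AMP response element TGACGTCA matched 240 to 233 bases before the Arnt start and had 0 matches before Ahr, against 1.59% of promoters with a match. No 2 of these matches overlapped. The Ahr stretch held 75.2% G and C with 32 CpG dinucleotides, and the Arnt stretch 57.6% with 8, against medians of 51.2% and 5 over all promoters. A match describes the letters of the window and is not evidence of binding.

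Ahr transcripts, which encode the receptor, overlapped between vehicle rats and the lowest dose and lay above both in every library from 0.03 µg/kg upward. Levels are given as CPM, the count of a gene relative to the total of its library, after TMM scaling, a correction of that total for composition. Ahr had 59.3, 61.6 and 55.9 CPM in vehicle livers and 59.0, 50.9 and 57.1 CPM at 0.01 µg/kg. It had 76.0, 102 and 106 CPM at 0.03 µg/kg and 97.5, 88.6 and 99.4 CPM at 0.1 µg/kg. These 2 dose groups did not overlap vehicle. At 0.3 µg/kg the livers held 66.2, 77.0 and 96.4 CPM and at 1 µg/kg 88.5, 161 and 125 CPM. The widest scatter within a dose for Ahr was at 1 µg/kg, where replicate 2 had the highest value of all 24 libraries. At 3 µg/kg the values were 81.8, 69.2 and 92.3 CPM, and at 10 µg/kg 104, 116 and 99.0 CPM. All 18 libraries from 0.03 to 10 µg/kg lay above all 6 of vehicle and 0.01 µg/kg. In whole liver, a change in the number of cells that express a transcript and a change in transcripts per cell cannot be told apart. A split of the libraries between 0.01 and 0.03 µg/kg, which was chosen from the Ahr values themselves, separated 10 of the 12496 genes tested in the same direction (0.08%), Ahr among them. This is a description of the pattern, without a test.

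**Figure D1:**
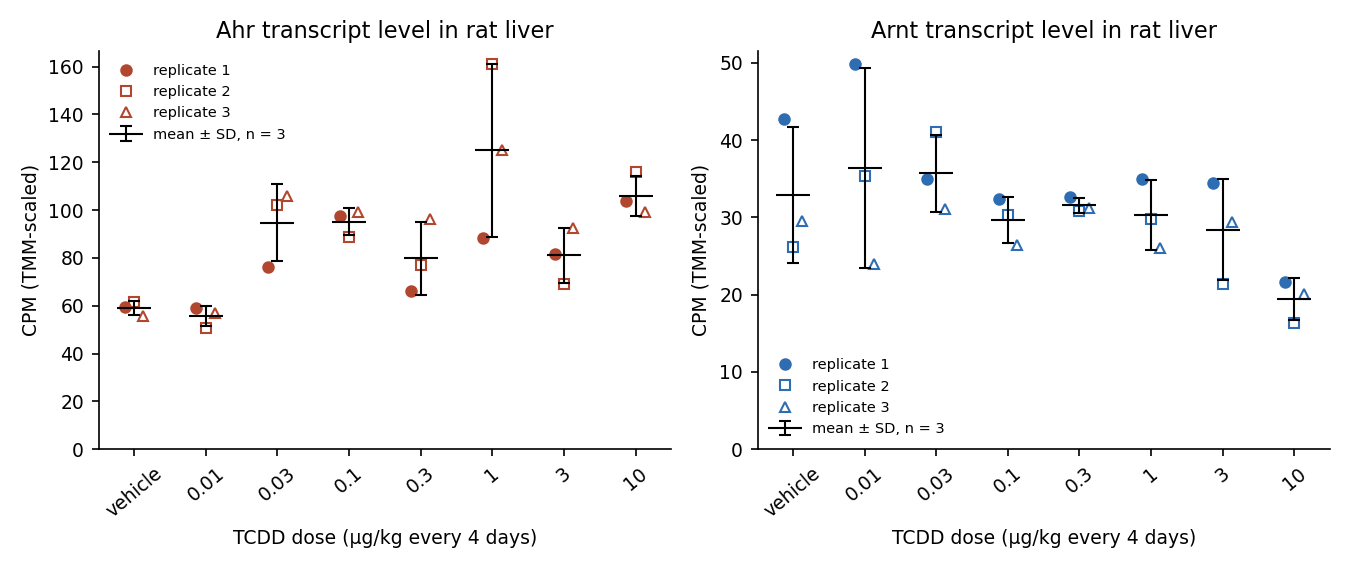
TMM-scaled CPM of Ahr (left) and Arnt (right) in each library against the TCDD dose in µg/kg, with markers for the replicate number and black bars for the group mean ± SD (n = 3). Ahr lies at 50.9 to 61.6 CPM in vehicle and at 0.01 µg/kg and at 66.2 CPM or more in every library at higher doses, while Arnt reaches its lowest mean, 19.4 CPM, at 10 µg/kg.

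Ordered by mean, Ahr was lowest at 0.01 µg/kg (55.7 ± 4.22 CPM) and in vehicle (59.0 ± 2.89 CPM), followed by 0.3 µg/kg (79.8 ± 15.3 CPM), 3 µg/kg (81.1 ± 11.6 CPM) and 0.03 µg/kg (94.8 ± 16.3 CPM). The higher means were at 0.1 µg/kg (95.2 ± 5.80 CPM), 10 µg/kg (106 ± 8.45 CPM) and 1 µg/kg (125 ± 36.1 CPM; SD, n = 3 throughout). The ranges of neighbours in this order overlapped, apart from the gap between vehicle and 0.3 µg/kg. The order of the means was thus not the order of the doses.

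The comparisons with vehicle asked from which dose the receptor transcript changed. Ahr differed among the 8 groups (edgeR F test, adjusted p = 0.000628), where 21.0% of genes tested were called, and it had a rising trend on the rank of the dose of 0.11 log2 units per step (SE 0.0301, edgeR adjusted p = 0.00461), where 17.8% of genes had a called rise. Every comparison with vehicle shares the same 3 vehicle libraries. At 10 µg/kg Ahr averaged 106 CPM against 59.0 CPM in vehicle, a rise of 1.8-fold (log2 fold change 0.85, SE 0.181, edgeR adjusted p = 0.00146), in a comparison where 14.7% of genes had a called rise. At 1 µg/kg it averaged 125 CPM against 59.0 CPM in vehicle, a rise of 2.12-fold (log2 fold change 1.08, SE 0.181, edgeR adjusted p = 0.00279), where 1.70% of genes had a called rise. By p-value Ahr stood at place 32 among all genes tested at 1 µg/kg and at place 1080 at 10 µg/kg.

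At the other doses above 0.01 µg/kg the Ahr difference had the same sign and missed the threshold. The log2 fold change was 0.68 at 0.03 µg/kg (95% interval 0.31 to 1.06, edgeR adjusted p = 0.326), where 0.016% of all genes had a called rise. It was 0.69 at 0.1 µg/kg (interval 0.31 to 1.07, edgeR adjusted p = 0.0668), where 0.872% had a called rise. DESeq2 gave an adjusted p of 0.0206 for this dose. It was 0.44 at 0.3 µg/kg (interval 0.06 to 0.81, edgeR adjusted p = 0.238; called rises 1.92%) and 0.46 at 3 µg/kg (interval 0.08 to 0.84, edgeR adjusted p = 0.0986; called rises 7.94%). At 0.01 µg/kg the log2 fold change was -0.08 (interval -0.46 to 0.29, edgeR adjusted p = 0.952; called rises 0.008%). The intervals are those of a single gene and are not adjusted for the number of genes. In each of the 6 dose groups from 0.03 µg/kg upward all 3 livers lay above all 3 vehicle livers, which gave the smallest two-sided p that an exact permutation test of 3 against 3 allows, 0.10. The share of genes with such a separation was 6.2% at 0.03, 9.8% at 0.1, 10.7% at 0.3 and 1, 14.9% at 3 and 21.4% at 10 µg/kg.

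**Figure D2:**
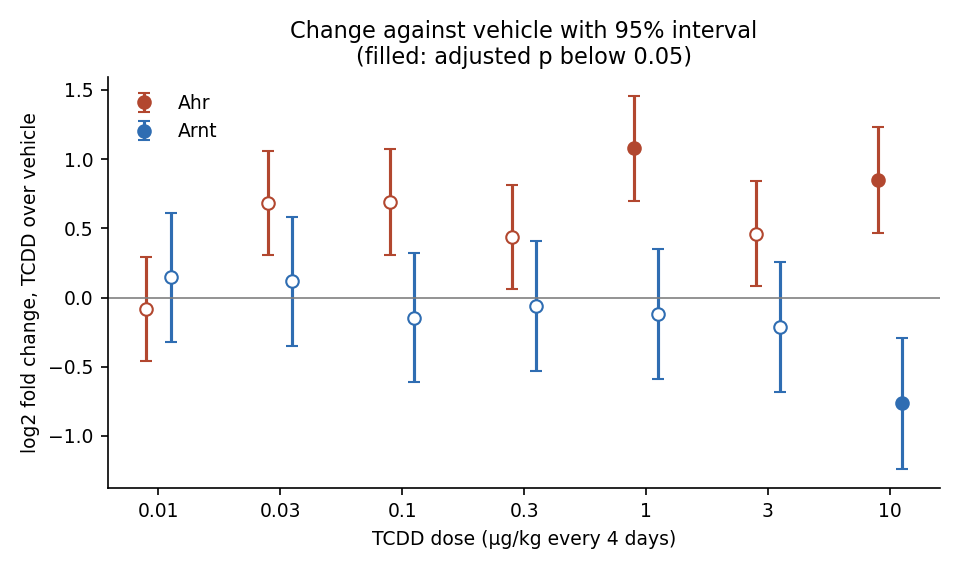
Log2 fold change of Ahr and Arnt at each TCDD dose over vehicle, with the 95% interval from the edgeR fit, and filled points for an adjusted p below 0.05. Ahr is filled at 1 and 10 µg/kg (1.08 and 0.85) and Arnt at 10 µg/kg (-0.76).

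A call at 1 and 10 µg/kg and none at 3 µg/kg does not show that these doses differ, so neighbouring doses were also compared. At 3 µg/kg Ahr was 0.62 log2 units below its level at 1 µg/kg (log2 fold change -0.62, SE 0.180, edgeR adjusted p = 0.237), where 0.312% of genes were called. Without replicate 1 at 1 µg/kg this difference was -0.82 and passed the threshold (edgeR adjusted p = 0.0311). Without replicate 2 at 1 µg/kg, the highest library, it was -0.40 and missed the threshold (edgeR adjusted p = 0.777). At 10 µg/kg Ahr was above 3 µg/kg in all 3 livers (log2 fold change 0.39, SE 0.179, edgeR adjusted p = 0.217), where 5.29% of genes were called. A separation of the 3 livers in this direction was found for 11.5% of genes. The step from 0.01 to 0.03 µg/kg had a log2 fold change of 0.77 (SE 0.181), with 94.8 ± 16.3 CPM at 0.03 µg/kg against 55.7 ± 4.22 CPM at 0.01 µg/kg. Its unadjusted edgeR p of 0.000375 was the fourth smallest of the 12496 genes and its adjusted p was 1. In that comparison edgeR called 0 genes (0%) and DESeq2 called 1. An unadjusted edgeR p under 0.05 was found for 406 genes (3.25%), fewer than this threshold passes on average without any difference. The call of Ahr at 1 µg/kg was lost in a fit of the 2 groups alone (log2 fold change 1.09, edgeR adjusted p = 0.0975), which estimates the spread from 6 libraries.

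Arnt transcripts, which encode the nuclear partner, showed no dose group apart from vehicle until the highest dose, where they were lower. Arnt had 42.8, 26.2 and 29.6 CPM in vehicle livers and 49.9, 35.4 and 24.0 CPM at 0.01 µg/kg. It had 35.0, 41.0 and 31.1 CPM at 0.03 µg/kg and 32.4, 30.3 and 26.4 CPM at 0.1 µg/kg. The livers at 0.01 µg/kg spanned the values of vehicle and of every dose from 0.03 to 1 µg/kg. At 0.3 µg/kg the livers held 32.7, 30.8 and 31.2 CPM, and at 1 µg/kg 35.0, 29.8 and 26.0 CPM. At 3 µg/kg the values were 34.4, 21.4 and 29.4 CPM, and at 10 µg/kg 21.6, 16.4 and 20.1 CPM. The 3 livers at 10 µg/kg lay below every vehicle liver, and 1 of the livers at 3 µg/kg (21.4 CPM) reached into their range. By group mean Arnt was lowest at 10 µg/kg (19.4 ± 2.72 CPM), followed by 3 µg/kg (28.4 ± 6.55 CPM), 0.1 µg/kg (29.7 ± 3.01 CPM), 1 µg/kg (30.3 ± 4.54 CPM) and 0.3 µg/kg (31.6 ± 0.964 CPM). Above these stood vehicle (32.9 ± 8.78 CPM), 0.03 µg/kg (35.7 ± 5.0 CPM) and 0.01 µg/kg (36.4 ± 13.0 CPM; SD, n = 3 throughout). The ranges of all neighbours in this order overlapped.

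At 10 µg/kg Arnt averaged 19.4 CPM against 32.9 CPM in vehicle, and it fell to 0.589 of the vehicle level in the fit (log2 fold change -0.76, SE 0.227, edgeR adjusted p = 0.0156), where 13.5% of all genes had a called fall. All 3 livers lay below all 3 vehicle livers (exact two-sided permutation p = 0.10, the smallest possible), as was the case for 21.3% of genes. The call rested on single libraries. It was lost without vehicle replicate 1, the highest of its group (log2 fold change -0.53, edgeR adjusted p = 0.113), and without replicate 2 at 10 µg/kg, the lowest (log2 fold change -0.66, edgeR adjusted p = 0.0739). Arnt had a falling trend on dose rank of -0.09 log2 units per step (SE 0.0265, edgeR adjusted p = 0.0103), where 15.8% of genes had a called fall. This trend call was kept without any 1 of the 24 libraries (highest edgeR adjusted p 0.0343). All of these fits keep livers at 10 µg/kg, so they do not separate a graded fall from a fall at that dose alone. The F test over the 8 groups missed the threshold (edgeR adjusted p = 0.0943), while DESeq2 passed it (adjusted p = 0.0439).

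Below 10 µg/kg no Arnt difference from vehicle passed the threshold. The log2 fold change was 0.15 at 0.01 µg/kg (interval -0.32 to 0.61), 0.12 at 0.03 µg/kg (interval -0.35 to 0.58) and -0.15 at 0.1 µg/kg (interval -0.61 to 0.32). It was -0.06 at 0.3 µg/kg (interval -0.53 to 0.41), -0.12 at 1 µg/kg (interval -0.59 to 0.35) and -0.21 at 3 µg/kg (interval -0.68 to 0.26). The edgeR adjusted p-values of these 6 doses ran from 0.593 to 0.936. Called falls among all genes made up 0.048% at 0.1, 0.144% at 0.3, 0.416% at 1 and 5.32% at 3 µg/kg. Each interval spans 0, and the sign at each of these doses turned when 1 library was left out. Between the highest doses, 19.4 ± 2.72 CPM at 10 µg/kg stood against 28.4 ± 6.55 CPM at 3 µg/kg, a log2 fold change of -0.55 (SE 0.227) that missed the threshold (edgeR adjusted p = 0.163).

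The livers at 10 µg/kg differed from the other groups in their alignments as well. Non-unique alignments, left out of all gene counts, were 29.3% to 35.0% of a table at 10 µg/kg against 23.4% to 24.9% in vehicle, and 21.0% to 25.8% at the other doses. Their part in the Ahr and Arnt values was not tested. TMM factors at 10 µg/kg were 1.08 to 1.11, against 0.922 to 0.995 in vehicle. With gene totals alone, an alternative added after the data were seen that moved the median over all genes at this dose to 0.156 on the log2 scale, Ahr had a log2 fold change of 1.03 (edgeR adjusted p = 0.00051) and Arnt of -0.60 (edgeR adjusted p = 0.0499).

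The ratio of Arnt to Ahr counts within a library needs no scaling between libraries. Its size also depends on the lengths of the transcripts, so that only its change is read here. Vehicle livers held 72.2, 42.6 and 52.9 Arnt reads for each 100 Ahr reads, and livers at 0.01 µg/kg held 84.7, 69.5 and 42.0. The ratio was 46.0, 40.0 and 29.4 per 100 at 0.03 µg/kg, and 33.2, 34.3 and 26.6 at 0.1 µg/kg. At 0.3 µg/kg it was 49.4, 40.1 and 32.4. Values were 39.6, 18.5 and 20.8 at 1 µg/kg, and 42.0, 30.9 and 31.8 at 3 µg/kg. Livers at 10 µg/kg held 20.7, 14.1 and 20.3 Arnt reads for each 100 Ahr reads. The livers at 0.1, 1, 3 and 10 µg/kg lay wholly below vehicle, and those at 0.01, 0.03 and 0.3 µg/kg overlapped it.

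At 10 µg/kg the mean log2 ratio was -2.46 ± 0.310 against -0.87 ± 0.383 in vehicle (SD, n = 3 each), a difference of -1.59, or a 3.01-fold lower ratio. The exact permutation p was 0.10, the smallest possible, and 0.175 after Benjamini-Hochberg adjustment over the 7 doses. Differences at 0.1, 1 and 3 µg/kg were -0.81, -1.14 and -0.66, with the same exact permutation p of 0.10 each. Over all 24 libraries the ratio differed among the 8 groups by more than the spread within them (F = 6.90, permutation p = 0.0006, 100000 resamples), and the groups held 75.1% of its variance. The ratio combines the Ahr and Arnt counts tested above, so it is not separate evidence of a change. Ratios of other gene pairs were not computed. With any 1 library of the 2 groups left out, the difference at 10 µg/kg was -1.77 to -1.39.

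**Figure D3:**
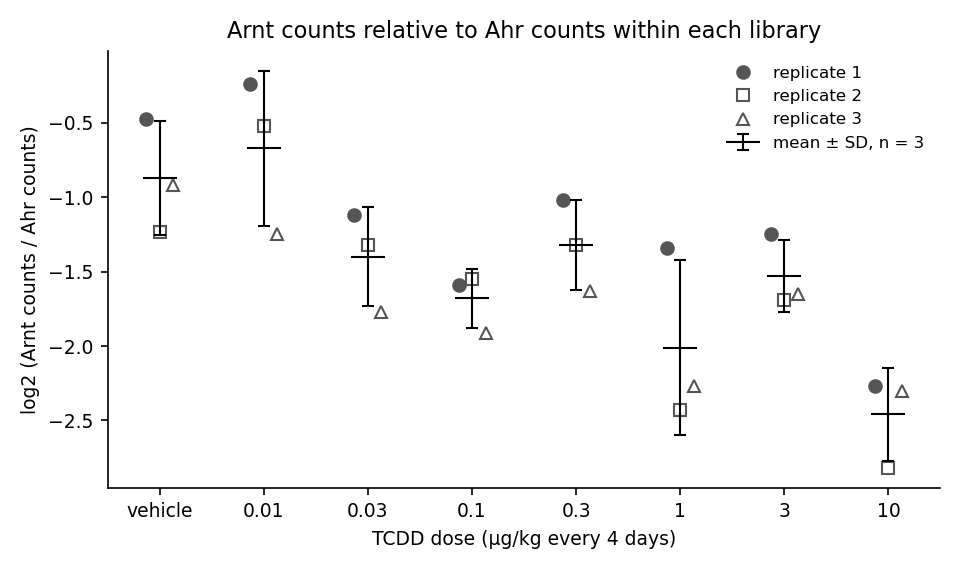
Log2 of Arnt counts over Ahr counts in each library against the TCDD dose, with markers for the replicate number and black bars for the group mean ± SD (n = 3). The 3 livers at 10 µg/kg lie between -2.82 and -2.27, below all vehicle livers at -1.23 to -0.47.

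Set against all genes at 10 µg/kg by size of change in either direction, Ahr stood at place 2541 and Arnt at place 2932. The median size over all genes was 0.384 on the log2 scale. A larger rise than that of Ahr was fitted for 12.7% of the 12496 genes, and 79.7% of genes changed by less than Ahr in either direction. For Arnt, 76.5% of genes changed by less in either direction. With the sign kept, the median over all genes was -0.02 on the log2 scale.

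**Figure D4:**
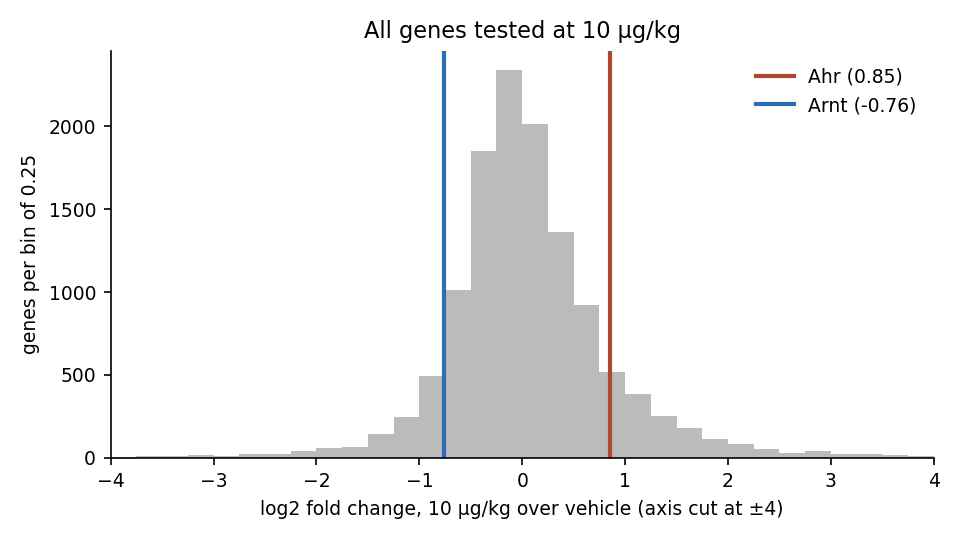
Histogram of the log2 fold change at 10 µg/kg over vehicle of all 12496 genes tested, in bins of 0.25, with Ahr (0.85) and Arnt (-0.76) as lines. The axis is cut at 4 in both directions, which leaves out 127 genes.

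Among rats of the same dose, the SD of log2 CPM was 0.227 for Ahr and 0.293 for Arnt, against a median of 0.290 over all genes, and 33.5% of genes varied less than Ahr. Dose groups held 79.7% of the variance of Ahr, more than in 95% of genes, and 54.0% of that of Arnt, against a median of 43.6%. The depth behind these values was 653 to 2034 counts of Ahr and 245 to 613 counts of Arnt in a library.

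After removal of the group means, Ahr and Arnt did not vary together detectably across the 24 libraries (Pearson r = -0.0566, permutation p = 0.785; Spearman rho = -0.0939, permutation p = 0.698; 100000 resamples within groups, 1 relation tested). Without the 2 libraries farthest from the median of Ahr, r was 0.0591 (permutation p = 0.791). The libraries carrying replicate number 1 lay above their group mean for Arnt in 7 of 8 groups, by 0.222 ± 0.181 log2 units on average (SD, n = 8). Those with number 2 averaged -0.0855 ± 0.196 and those with number 3 averaged -0.137 ± 0.196 for Arnt. For Ahr, numbers 1, 2 and 3 averaged -0.109 ± 0.198, 0.030 ± 0.196 and 0.0795 ± 0.134. The labels do not say what the numbers stand for. How many other genes had such an offset by replicate number was not computed, so it cannot be called particular to Arnt.

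**Figure D5:**
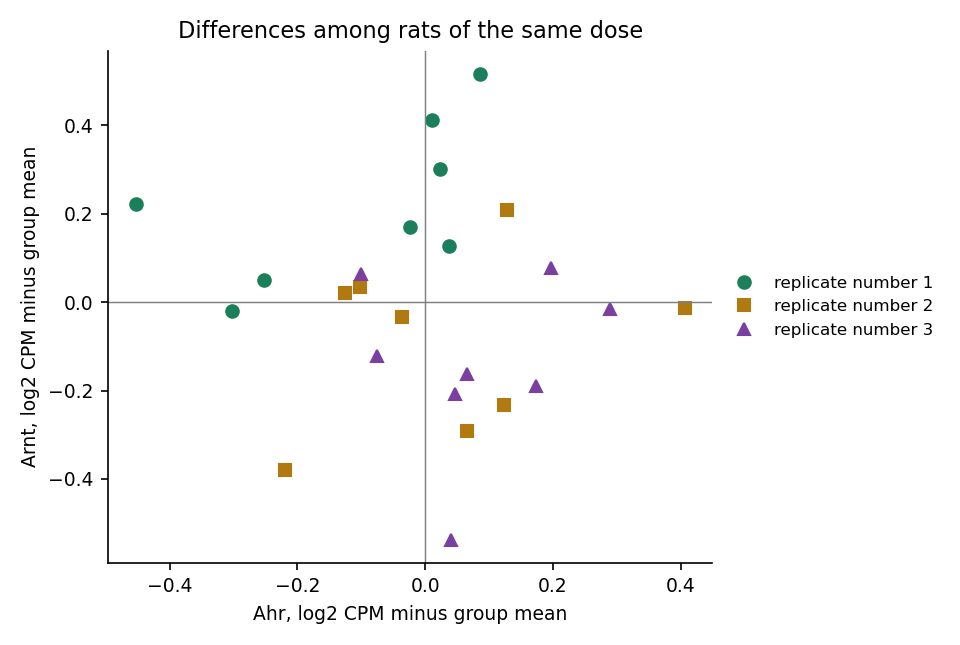
Deviation of each library from its group mean in log2 CPM, Ahr on the horizontal and Arnt on the vertical axis, with the colour and shape giving the replicate number. The 24 points show no common slope (r = -0.0566), and 7 of 8 libraries with number 1 lie above 0 for Arnt.

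The gene IDs with the pattern most like each member were sought by Pearson r of log2 CPM over the 24 libraries, among 8346 other genes with a mean of at least 5 CPM. These r values are descriptions, since the points share dose groups, libraries and scaling. Nearest to Ahr were ENSRNOG00000033433 (r = 0.757) and ENSRNOG00000014504 (r = 0.751), and 0% of the genes reached an r above 0.8 with Ahr. ENSRNOG00000033433 averaged 24.8 ± 7.50 CPM at 10 µg/kg against 13.8 ± 2.67 CPM in vehicle (log2 fold change 0.84, edgeR adjusted p = 0.00617), and ENSRNOG00000014504 averaged 96.7 ± 8.14 CPM against 50.7 ± 17.1 CPM in vehicle (log2 fold change 0.93, edgeR adjusted p = 0.0167). Nearest to Arnt were ENSRNOG00000017030 (r = 0.878) and ENSRNOG00000009720 (r = 0.860), and 0.479% of the genes exceeded 0.8 with Arnt. ENSRNOG00000017030 averaged 19.9 ± 2.41 CPM at 10 µg/kg against 29.5 ± 7.02 CPM in vehicle (log2 fold change -0.57, edgeR adjusted p = 0.0299), and ENSRNOG00000009720 averaged 30.8 ± 3.61 CPM against 62.5 ± 9.06 CPM in vehicle (log2 fold change -1.02, edgeR adjusted p = 0.000143). With the group means removed, the r with Arnt was 0.830 and 0.799 for these 2 IDs, and the r with Ahr was 0.263 and 0.514 for the 2 nearest to it. For the next nearest ID the r with the group means removed was 0.813 with Arnt and 0.721 with Ahr. That ID for Ahr (r = 0.748 over the 24 libraries) averaged 0.0807 CPM in vehicle.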

How the data were processed

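The authors deposited 1 table of whole-number counts per library, not normalised, for 26404 Ensembl gene IDs. Liver RNA was extracted in TRIzol and made into libraries by an Illumina RNA preparation kit, per the labels' protocols. The submitters' processing notes name TopHat 1.4.1 and HTSeq 0.6.1 beside SAMtools 0.1.2, cutadapt 1.4.1, FastQC 0.11.2 and DESeq, without order or settings. The genome build, annotation release and strand setting are not given in the sources used here, so reads of overlapping or antisense genes cannot be told apart from those of a member. The 5 HTSeq summary rows, which held 35.8% to 47.5% of a table, entered neither library sizes nor tests. Gene counts per library were 11816273 to 15804887. No 2 replicates agreed within sampling noise (chi-square per degree of freedom 13.0 to 54.3).

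Groups and replicate numbers came from the dose and replicate labels. Tests used edgeR 4.0.16 in R 4.3.3: filterByExpr on the 8 groups (12496 of 18198 IDs with a count), TMM scaling (factors 0.898 to 1.11) and a quasi-likelihood fit of all 24 libraries with 1 mean per group. Each dose was set against vehicle and against the next lower dose, with the F test over all groups and a trend on dose rank. P-values were adjusted by Benjamini-Hochberg over all genes, and the threshold was 0.05. The SE of a log2 fold change was its size over the square root of F. The procedure was tested on simulated data with log2 changes linear in dose rank. No result here leans on that test. The alternatives were RLE scaling, gene totals alone, DESeq2 1.42.0, 2 other filters, a block on the replicate number, a fit of the 2 groups alone, log10 of dose and leaving out each library.

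Promoter sequences came from RefSeq (GRCr8) and were found for both members by symbol. The members, lists and rules were chosen with earlier results of these data known. Named IDs beside the members were those most like each member, at most 2 that rose and 2 that fell. The pathway and marker lists by symbol were not applied, because 0 of the 47357 rows of the RefSeq gene table held an Ensembl ID.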

Additional observations from a re-analysis of the deposited data

Results flagged for a closer look

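Non-unique alignments, left out of the gene counts, averaged 32.0% ± 2.85 of a table at 10 µg/kg against 24.1% ± 0.797 in vehicle (SD, n = 3 each), a signal above the control livers in data outside the comparisons. At the other doses the group means were 22.1% to 24.3%, so the share stood apart at 10 µg/kg alone. At that dose Arnt had a called fall and Ahr a called rise. The part of the non-unique alignments in these results was not tested.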

How the results depend on the processing

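The signs and calls of Ahr and Arnt were the same as in the report under RLE scaling, both other low-count filters and log10 of dose (slopes 0.25 and -0.22 per log10 unit). DESeq2 changed 2 calls, Ahr at 0.1 µg/kg (log2 fold change 0.69, adjusted p = 0.0206) and Arnt over the 8 groups (adjusted p = 0.0439), and a fit of the 2 groups alone lost Ahr at 1 µg/kg (1.09). Gene totals alone turned values near 0: Arnt at 0.3 µg/kg (0.00 on the log2 scale) and for 0.03 against 0.01 µg/kg (0.00), and Ahr for 0.1 against 0.03 µg/kg (-0.01). The causes were not tested.

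The replicate numbers did not meet the rule for pairs, since correlations of same-numbered deviations from the group means ran from -0.146 to 0.377. With the number as a block, Arnt passed the F test (edgeR adjusted p = 0.026), its log2 fold change for 0.03 against 0.01 µg/kg was 0.01, no other call of Ahr or Arnt changed, and 183 genes were called at 0.1 µg/kg in place of 115. In this blocked fit Arnt at 10 µg/kg against vehicle had a log2 fold change of -0.74 (edgeR adjusted p = 0.00487).

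Without single libraries, the Arnt log2 fold change against vehicle ran from -0.15 to 0.38 at 0.01, -0.02 to 0.35 at 0.03, -0.27 to 0.09 at 0.1, -0.18 to 0.18 at 0.3, -0.26 to 0.12 at 1, -0.36 to 0.03 at 3 and -0.90 to -0.53 at 10 µg/kg. Its F test had adjusted p-values of 0.022 to 0.333. Between doses Arnt ran from -0.26 to 0.26 (0.03 against 0.01), -0.18 to 0.04 (1 against 0.3) and -0.24 to 0.09 (3 against 1 µg/kg), and Ahr from -0.13 to 0.09 (0.1 against 0.03) and -0.82 to -0.40 (3 against 1 µg/kg). The log2 ratio at 0.01 µg/kg against vehicle ran from -0.01 to 0.49. The Ahr calls at 1 and 10 µg/kg, over the groups and for the trend held in all of these.

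Counts of all genes called moved by more than 1.5 times in several comparisons. DESeq2 called 15 genes at 0.01 µg/kg where edgeR called 1, 28 against 2 at 0.03, 314 against 115 at 0.1, 508 against 258 at 0.3 and 624 against 264 at 1 µg/kg, and 95 for 3 against 1 µg/kg in place of 39. Fits of the 2 groups alone called 0 at 0.01 µg/kg (740 at an unadjusted p below 0.05), 42 at 0.1, 7 at 0.3, 54 at 1 and 757 at 3 µg/kg (1657 in the fit of all libraries), 12 for 3 against 1 and 279 for 10 against 3 µg/kg (661 in the fit of all libraries). Single libraries moved the counts to 1 to 2 at 0.01, 2 to 4 at 0.03, 9 to 147 at 0.1, 15 to 465 at 0.3, 66 to 543 at 1, 812 to 1474 at 3, 8 to 47 for 3 against 1, and 202 to 753 for 10 against 3 µg/kg.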
